A study of Arabidopsis thaliana with 12 samples.

Results

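The 5 phytochromes of *Arabidopsis thaliana* (*PHYA*, *PHYB*, *PHYC*, *PHYD* and *PHYE*) and the 2 genes that help phytochrome A enter the nucleus (*FHY1* and *FHL*) were followed across light and genotype. The 7 genes were picked by gene identifier, out of 32824 genes with a value in every library, and all 7 passed the filter on low values. RNA came from whole seedlings of *rev-5*, *wox4* and the Col-0 wild type, the accession both mutants were compared with. *rev-5* carries a point mutation in *REVOLUTA* (*REV*), a class III homeodomain leucine zipper gene, and *wox4* is described by the study as an insertion line of *WOX4*, a WUSCHEL-related homeobox gene active in the cambium. The level of *WOX4* in the libraries with that label, given with the other checks, goes against a loss of its transcript. All seedlings grew in continuous light, spent 2 days in white light (WL), and were then kept for 8 days either in WL to which far-red light was added (WL+FR), which imitates neighbour shade, or in WL alone. The 3 genotypes and 2 lights gave 6 groups of 2 libraries, which the study describes as biological replicates, and each mutant was represented by 1 allele.

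Phytochromes are photoreceptors that carry a linear tetrapyrrole bound to a cysteine and switch between an inactive form that absorbs red light and an active form that absorbs far-red light. Phytochrome B and its relatives C, D and E are stable in light and restrain elongation while red light dominates, whereas phytochrome A accumulates in darkness, is degraded in light and mediates responses to continuous far-red light. FHY1 and its homologue FHL carry active phytochrome A into the nucleus, and transcription of both genes is activated by the transposase-derived factors FHY3 and FAR1.

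The positions of all 7 genes are the same in the deposited tables and in the RefSeq annotation of TAIR10.1. *PHYA* (AT1G09570) lies at chr1:3095160-3100819 on the minus strand, *PHYB* (AT2G18790) at chr2:8139756-8144461 on the plus strand, *PHYC* (AT5G35840) at chr5:14007812-14011848 on the plus strand, *PHYD* (AT4G16250) at chr4:9195247-9199840 on the minus strand and *PHYE* (AT4G18130) at chr4:10042137-10046346 on the minus strand. *FHY1* (AT2G37678) lies at chr2:15801418-15802793 on the minus strand and *FHL* (AT5G02200) at chr5:437365-439019 on the plus strand. The feature that makes these proteins photoreceptors is the cysteine that binds the chromophore, so the 51 coding bases around its codon are given for each phytochrome, with that codon in capitals. For each gene the transcript with the longest coding sequence was used, and *PHYA* has 6 annotated transcripts. In the transcripts used, the stretch lies within the second coding exon of *PHYA* and within the first coding exon of the others.
PHYA: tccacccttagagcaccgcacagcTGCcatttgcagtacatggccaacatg
PHYB: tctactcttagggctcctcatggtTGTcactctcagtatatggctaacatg
PHYC: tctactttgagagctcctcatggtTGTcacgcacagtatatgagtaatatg
PHYD: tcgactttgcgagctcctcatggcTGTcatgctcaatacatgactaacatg
PHYE: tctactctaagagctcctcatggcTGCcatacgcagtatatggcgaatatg
Over these 51 bases *PHYA* differed from *PHYB* at 14 positions, *PHYD* at 11, *PHYE* at 9 and *PHYC* at 8. Over the whole coding sequence *PHYB* and *PHYD* were the closest pair, with 80.7% identical aligned bases and a longest identical run of 43 bases between their transcripts. The other phytochrome pairs shared between 60.4% and 66.1% of bases and no run over 26 bases, and *FHY1* and *FHL* shared 62.3% and no run over 14 bases. Exact sharing between these transcripts was thus limited to runs of at most 43 bases. *PHYE* overlaps AT4G18140, and whether fragments were counted by strand is not given in the sources used here, so the level of *PHYE* may hold fragments of that gene.

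The upstream regions are shown for *PHYB* and *FHL*, the members with the largest difference between lights. Each window is the 250 bases before the annotated gene start, read in the direction of the gene from TAIR10.1, and no other gene lies in either window. Capitals mark CACGCGC, the binding site of FHY3 and FAR1, and CACGTG, the G-box bound by bHLH and bZIP factors. Both motifs begin with CACG, and no matches overlap. The *PHYB* window is chr2:8139506-8139755 (plus strand) and the *FHL* window is chr5:437115-437364 (plus strand).
PHYB: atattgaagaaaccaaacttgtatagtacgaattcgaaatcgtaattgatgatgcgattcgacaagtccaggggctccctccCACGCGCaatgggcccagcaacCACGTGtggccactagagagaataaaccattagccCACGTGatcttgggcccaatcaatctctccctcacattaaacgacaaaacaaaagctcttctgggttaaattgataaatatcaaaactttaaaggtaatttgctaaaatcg
FHL: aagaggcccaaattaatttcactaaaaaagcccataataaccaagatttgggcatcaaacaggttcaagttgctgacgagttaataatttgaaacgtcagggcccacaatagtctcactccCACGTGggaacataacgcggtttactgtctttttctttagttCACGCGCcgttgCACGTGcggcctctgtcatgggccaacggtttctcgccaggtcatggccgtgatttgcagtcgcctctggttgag
Each window held 1 CACGCGC and 2 CACGTG. Searched on both strands, CACGCGC was present in 1.06% of 27443 promoter windows of the same length, CACGTG in 6.49%, and CACGCGC together with 2 or more CACGTG in 0.0255%, which is 7 windows including these 2. The combination was taken from these 2 windows after their matches were seen, so its low share is no evidence about the response to light. *FHY1* held 1 CACGCGC and *PHYD* 1 CACGTG, *PHYC* held 1 AATATCT (an evening-type element, in 2745 windows), and *PHYA* and *PHYE* held none of the 3 motifs. The *PHYD* window overlaps the annotated gene AT4G16260, and the *PHYE* window overlaps AT4G18140. A match of letters is a description and was not tested as a binding site.

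Values were deposited as FPKM and rescaled to TPM, which allows genes of different length to be set side by side. The tables hold no read counts. Read as counting error, the widths of the FPKM bounds summed to 7.02 M to 7.82 M fragments in each library (M, 1e6 fragments), with a median of 7.17 M, which measures precision and is no sequencing depth, since the bounds of some abundant genes were wider than counting error. The shade genes *ATHB2* (30.98 to 46.35 TPM in WL+FR, against 7.57 to 10.94 TPM in WL) and *PIL1* (20.26 to 26.31 TPM in WL+FR, against 0.27 to 1.45 TPM in WL) separated the lights in every genotype. *WOX4* stood at 112 to 149 TPM in the 4 libraries labelled *wox4*, against 1.58 to 3.93 TPM in the other 8, which goes against a loss of *WOX4* transcript in them. They are called the libraries labelled *wox4* here, their state of *WOX4* function is not known, and values are also given without them. *REV* had 6.29 to 6.75 TPM in *rev-5*, which does not check a point mutation. The 10 highest genes took 12.9% to 14.3% of all TPM in WL+FR and 17.6% to 18.7% in WL.

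All 7 members were detected in all 12 libraries. *PHYA* had the highest mean level over the 12 libraries (90.8 TPM), followed by *PHYB* (54.6 TPM), *PHYC* (22.2 TPM), *FHY1* (19.0 TPM), *PHYE* (17.3 TPM), *PHYD* (8.06 TPM) and *FHL* (7.35 TPM). *PHYA* exceeded *PHYB* and *PHYB* exceeded *PHYC* in 12 of 12 libraries, as did *PHYE* over *PHYD*. *PHYC* exceeded *FHY1* in 11 of 12 libraries. *FHY1* and *PHYE* were not separated, since *FHY1* was the higher in 3 of 6 WL+FR libraries and 5 of 6 WL libraries. *PHYD* and *FHL* changed places with the light, with *PHYD* higher in 2 of 6 WL+FR libraries and in 6 of 6 WL libraries.

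**Figure D1:**
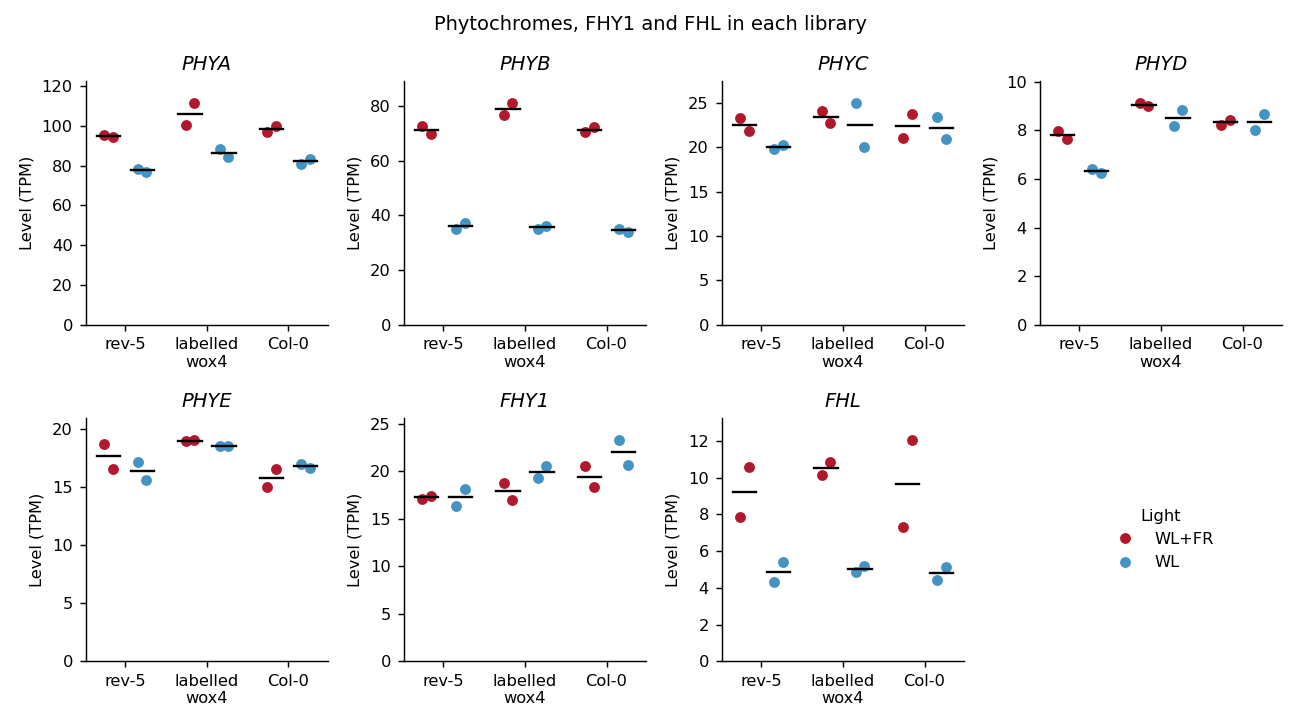
Level of each gene in TPM (vertical axes, from 0) in each library, by genotype, with WL+FR libraries in red left of WL libraries in blue; points are libraries and bars the mean of 2. *PHYB* and *FHL* separate the lights in all 3 genotypes, *PHYA* by a smaller step, and the other 4 genes overlap between lights over all libraries.

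The question of the light comparison was how transcript levels of the receptors differ between WL+FR and WL. *PHYB*, *FHL* and *PHYA* were higher in WL+FR, and *PHYC*, *PHYD*, *PHYE* and *FHY1* did not pass the test. Over the mean response of the 3 genotypes, 3 of 7 members were called at an adjusted p under 0.01, and all 3 were higher. Of all 20020 genes tested, 23.2% were called and 18.4% were called higher, and the median log2 fold change of the members (0.11) was that of all genes (0.11). In the same 3 members all 6 WL+FR libraries lay above all 6 WL libraries, which held for 12.4% of the genes tested. With quantile normalization in place of TPM the median of all genes was -0.02, and 50.5% of the calls of all genes were higher, in place of 79.3% with TPM and 66.2% with voom. *PHYB*, *FHL* and *PHYA* remained called on that scale. In RNA from whole seedlings, a change in the number of expressing cells and a change in RNA per cell cannot be told apart.

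*PHYB*, the main receptor through which seedlings sense shade, had the largest response of the family. It reached 72.8 and 69.8 TPM in *rev-5* WL+FR, against 34.9 and 37.3 TPM in *rev-5* WL. In the libraries labelled *wox4* it had 76.6 and 81.0 TPM in WL+FR, against 35.1 and 36.1 TPM in WL. In Col-0 it had 70.4 and 72.1 TPM in WL+FR, against 35.2 and 34.0 TPM in WL. The 2 lights were far apart in every genotype and the replicates close together, with an SD of 0.77 to 3.11 TPM within groups (n = 2 each). On the log2(TPM + 1) scale the mean response was 1.04 (SE 0.03, 95% interval 0.96 to 1.11), a 2.05-fold difference with an adjusted p of 2.37e-08 in limma, and it exceeded that of 98.5% of the genes tested. With quantile normalization the response was 0.90. *PHYB* was the only member with a log2 fold change over 1 at this threshold, a rule that 1.5% of all genes met. Without the libraries labelled *wox4* the response was 0.99 (adjusted p = 2.07e-05).

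*FHL*, the less abundant of the import helpers, was also higher in WL+FR. It had 7.85 and 10.6 TPM in *rev-5* WL+FR, against 4.31 and 5.43 TPM in *rev-5* WL. It had 10.1 and 10.9 TPM in WL+FR in the libraries labelled *wox4*, against 4.87 and 5.18 TPM in WL, and 7.30 and 12.1 TPM in Col-0 WL+FR, against 4.44 and 5.15 TPM in Col-0 WL. The lights did not overlap, but the replicates of Col-0 WL+FR stood far apart (SD 3.37 TPM on a mean of 9.68 TPM, n = 2). The mean response was 0.86 (SE 0.12, 95% interval 0.58 to 1.13), 1.81-fold, with an adjusted p of 0.000509. The pseudocount pulls a gene at this level towards 0, and with a pseudocount of 0.1 TPM the response was 0.97. The FPKM bounds of *FHL* were as wide as counting error on 82 to 127 fragments in WL+FR and on 46 to 59 fragments in WL, the lowest support of the 7 genes. Without the libraries labelled *wox4* the response was 0.82 and was no longer called (adjusted p = 0.0171).

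*FHY1*, the more abundant helper, was not called higher or lower in WL+FR. It had 16.96 to 20.5 TPM in WL+FR (median 17.9 TPM), against 16.4 to 23.3 TPM in WL (median 20.0 TPM), and the lights overlapped. The mean response was -0.11 (SE 0.05, 95% interval -0.23 to 0.02, adjusted p = 0.166). Under the changes of processing it went down to -0.24. It was called under none of 19 alternatives, with a lowest adjusted p of 0.0123 in limma. The summed level of both helpers was 24.9 to 30.4 TPM in WL+FR, against 20.7 to 27.7 TPM in WL. *FHL* thus made up 26.2% to 39.7% of that sum in WL+FR, against 16.0% to 23.1% in WL.

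*PHYA*, the receptor of continuous far-red light, differed by a small and even step. It had 95.2 and 94.2 TPM in *rev-5* WL+FR, against 78.5 and 76.9 TPM in *rev-5* WL. In the libraries labelled *wox4* it had 100.4 and 111 TPM in WL+FR, against 88.1 and 84.1 TPM in WL, and in Col-0 it had 97.0 and 99.8 TPM in WL+FR, against 81.0 and 83.5 TPM in WL. The lowest WL+FR library (94.2 TPM) lay above the highest WL library (88.1 TPM). The mean response was 0.28 (SE 0.03, 95% interval 0.21 to 0.35), 1.21-fold, with an adjusted p of 0.000116, and 77.5% of the genes tested had a lower one. Relative to the median of all genes on each scale the step was small, and with quantile normalization the response was 0.14 (adjusted p = 0.00763). Without the libraries labelled *wox4* it was 0.27 (adjusted p = 0.00107).

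*PHYC*, *PHYD* and *PHYE*, which act beside phytochrome B as stable receptors, overlapped between lights over all libraries. *PHYC* had 21.1 to 24.1 TPM in WL+FR, against 19.9 to 24.98 TPM in WL, with a mean response of 0.08 (95% interval -0.06 to 0.22, adjusted p = 0.371). *PHYD*, the closest relative of *PHYB* in sequence, had 7.63 to 9.12 TPM in WL+FR, against 6.26 to 8.86 TPM in WL (0.11, 95% interval -0.01 to 0.23, adjusted p = 0.134). Within *rev-5* alone the lights of *PHYD* did not overlap, and its response was 0.26 (95% interval 0.05 to 0.47). It was not called there (adjusted p = 0.0991 in limma). In the libraries labelled *wox4* the *PHYD* response was 0.08, and in Col-0 it was 0.00. *PHYE* had 15.0 to 19.0 TPM in WL+FR, against 15.6 to 18.5 TPM in WL (0.02, 95% interval -0.09 to 0.13, adjusted p = 0.831). The intervals of the mean response of all 3 genes ended at a log2 difference of at most 0.23, below the interval of *PHYB*. With quantile normalization the 3 values were -0.06, -0.02 and -0.11, and none was called.

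**Figure D2:**
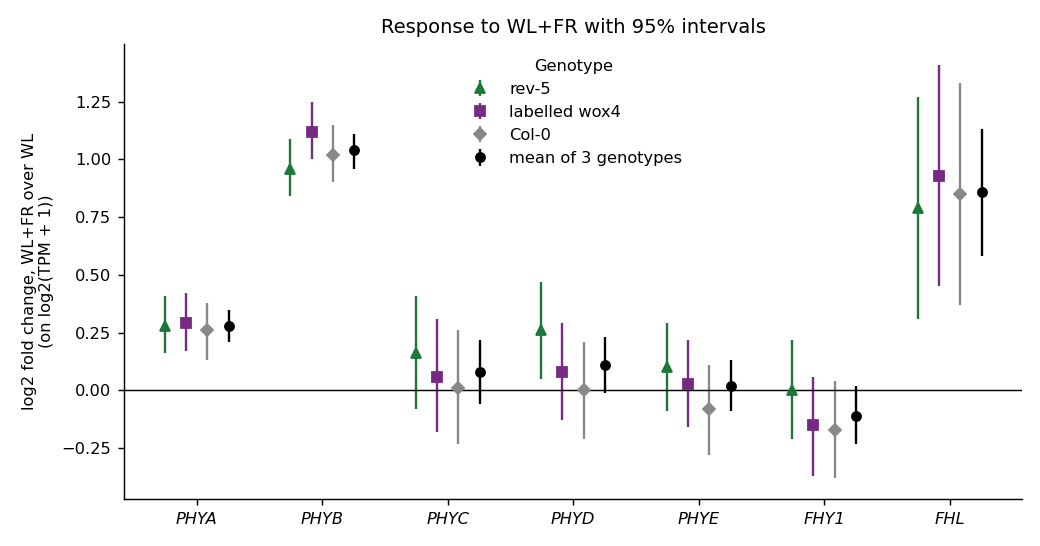
Log2 fold change of WL+FR over WL for each gene (vertical axis, on log2(TPM + 1)) in *rev-5*, the libraries labelled *wox4*, Col-0 and their mean, with 95% intervals from limma. *PHYB* lies near 1 in all 3 genotypes (0.96, 1.12 and 1.02), *PHYA* near 0.28 with narrow intervals, and *FHL* near 0.86 with wide ones.

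Within single genotypes, *PHYB* was called in each, with responses of 0.96 in *rev-5* (adjusted p = 7.27e-06), 1.12 in the libraries labelled *wox4* (adjusted p = 1.91e-06) and 1.02 in Col-0 (adjusted p = 3.16e-06). *PHYA* had nearly equal values of 0.28 (adjusted p = 0.00854), 0.29 (adjusted p = 0.00526) and 0.26 (adjusted p = 0.0105), so that *rev-5* and the libraries labelled *wox4* fell just inside the threshold and Col-0 just outside. The *PHYA* call in *rev-5* was lost when any of 10 of the 12 libraries was left out (adjusted p 0.013 to 0.0566). That in the libraries labelled *wox4* was lost with any of 5 (0.011 to 0.0418), and Col-0 was called without either WL+FR library labelled *wox4* (0.00546 and 0.00551). *FHL* missed the threshold in all 3, with 0.79 in *rev-5* (adjusted p = 0.0375), 0.93 in the libraries labelled *wox4* (adjusted p = 0.0146) and 0.85 in Col-0 (adjusted p = 0.0228). Leaving out either Col-0 WL+FR library brought *FHL* past the threshold in the libraries labelled *wox4* (0.00559 and 0.00545), and leaving out the lower of them (7.30 TPM) did so in Col-0, with a response of 1.17 (adjusted p = 0.00673). In all, 2 members were called in *rev-5*, where 6.6% of all genes were called, 2 in the libraries labelled *wox4* (9.48%) and 1 in Col-0 (9.69%).

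The balance among the receptors differed between lights. The summed level of the 5 phytochromes was 210 to 243 TPM in WL+FR, against 156 to 175 TPM in WL. *PHYA* stood at 1.31 to 1.38 times *PHYB* in WL+FR, against 2.06 to 2.51 times in WL, and the 6 WL+FR ratios lay within a narrow band. *PHYB* made up 32.7% to 33.4% of the sum in WL+FR, against 20.1% to 23.9% in WL. *PHYA* remained the largest part in every library, with 43.7% to 45.8% in WL+FR, against 49.2% to 51.0% in WL. *PHYC*, *PHYD* and *PHYE* together had 44.3 to 52.2 TPM in WL+FR, against 42.1 to 51.7 TPM in WL, and these ranges overlapped. *PHYB* stood at 8.40 to 9.15 times *PHYD* in WL+FR, against 3.93 to 5.96 times in WL. These ratios are descriptions of the same levels and were not tested.

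**Figure D3:**
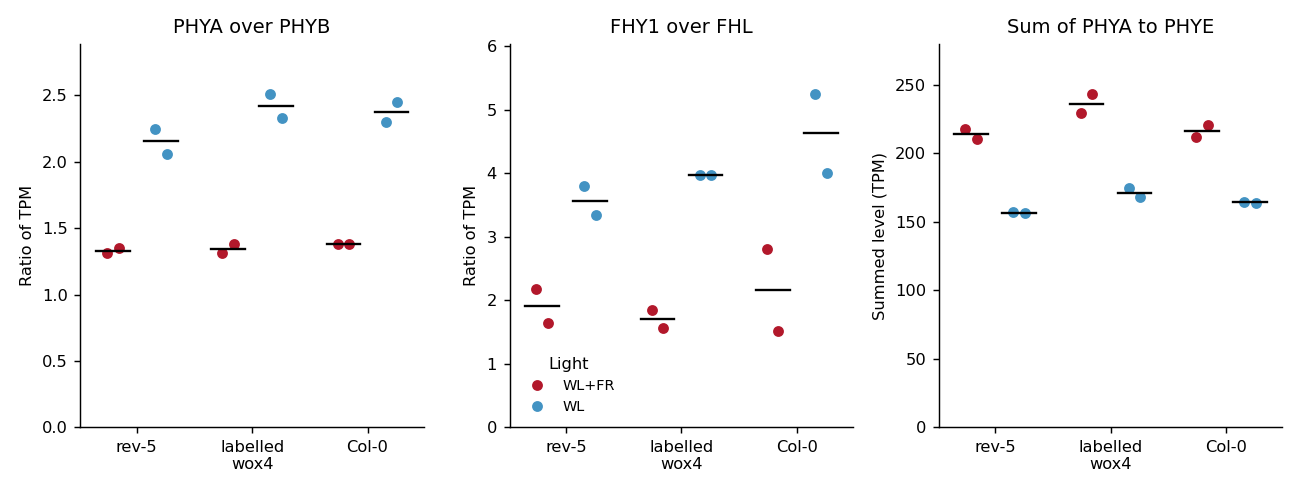
Ratio of *PHYA* to *PHYB*, ratio of *FHY1* to *FHL* and summed level of the 5 phytochromes (vertical axes, from 0) in each library, with WL+FR in red left of WL in blue and bars for the mean of 2. Both ratios are lower in WL+FR (1.31 to 1.38 and 1.52 to 2.81) than in WL (2.06 to 2.51 and 3.34 to 5.25), and the sum is higher.

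The next question was whether the members differ between *rev-5* or the libraries labelled *wox4* and Col-0. Since *WOX4* was high in the libraries with that label, their comparison with Col-0 cannot be read as one with a loss of *WOX4*. No member was called in either comparison in either light, or in the difference of their responses to light. In limma, *rev-5* against Col-0 had 0 members called in WL (1.93% of all genes) with 2 at an unadjusted p under 0.05 (18.6% of all genes), and 0 in WL+FR (1.18%) with 0 unadjusted (17%). The libraries labelled *wox4* against Col-0 had 0 members called in WL (0.0949% of all genes) with 0 at an unadjusted p under 0.05 (9.26%), and 0 in WL+FR (0.16%) with 2 unadjusted (14.5%). The difference of the responses had 0 members called for *rev-5* (0.2% of all genes) and for the libraries labelled *wox4* (0.0649%), and 0 at an unadjusted p under 0.05 in both (9.19% and 6.93% of all genes). limma voom also called 0 members in each of these 6 comparisons. The difference of the *PHYB* responses was -0.06 for *rev-5* minus Col-0 (95% interval -0.24 to 0.12) and 0.10 for the libraries labelled *wox4* minus Col-0 (95% interval -0.08 to 0.28). For *FHL* the same intervals were wide, from -0.73 to 0.62 for *rev-5* and from -0.59 to 0.76 for the libraries labelled *wox4*.

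The members nearest to a genotype difference were *FHY1* and *PHYD* in *rev-5*. *FHY1* had 17.1 and 17.4 TPM in *rev-5* WL+FR and 16.4 and 18.1 TPM in *rev-5* WL, against 20.5 and 18.3 TPM in Col-0 WL+FR and 23.3 and 20.7 TPM in Col-0 WL. *FHY1* and *PHYD* were the 2 members in which all 4 *rev-5* libraries lay below all 4 Col-0 libraries, which held for 3.93% of the genes tested. For *FHY1* the log2 difference was -0.33 in WL (95% interval -0.55 to -0.12, adjusted p = 0.0869 in limma) and -0.16 in WL+FR (adjusted p = 0.441 in limma). Averaged over both lights, a comparison added after the values were seen, it was -0.25 (adjusted p = 0.0506), where 4.04% of all genes were called. *PHYD* had 6.40 and 6.26 TPM in *rev-5* WL, against 8.02 and 8.67 TPM in Col-0 WL, a log2 difference of -0.35 (adjusted p = 0.0686 in limma). In WL+FR it had 7.96 and 7.63 TPM in *rev-5*, against 8.24 and 8.44 TPM in Col-0 (-0.09, adjusted p = 0.687). In the libraries labelled *wox4*, *PHYE* had 18.9 and 19.0 TPM in WL+FR and 18.5 TPM in both WL libraries, against 15.0 and 16.6 TPM in Col-0 WL+FR and 16.9 and 16.6 TPM in Col-0 WL. It was the 1 member in which all 4 of these libraries lay above all 4 of Col-0, which held for 2.77% of the genes tested. Its log2 difference was 0.25 in WL+FR (adjusted p = 0.21 in limma), 0.14 in WL (adjusted p = 0.678) and 0.19 over both lights (adjusted p = 0.147, where 0.395% of all genes were called).

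The rest of the pathway was followed in 41 genes in 6 lists by role, of which 37 were tested. In the mean response to WL+FR, 11 were called higher and 1 lower, against 23.2% of all genes called in either direction, and their median log2 fold change was 0.19, against 0.11 for all genes. Without the libraries labelled *wox4* 9 were called, while calls over all 20020 genes tested fell from 4638 to 2437. No gene of chromophore synthesis was called (0 of 3). *HY1*, a haem oxygenase, had 104 to 129 TPM in WL+FR, against 97.2 to 135 TPM in WL (0.00, adjusted p = 0.995), and *HY2*, the phytochromobilin synthase, had 6.11 to 8.97 TPM in WL+FR, against 6.28 to 9.39 TPM in WL (-0.19, adjusted p = 0.127). *HO2*, a haem oxygenase homologue, had 19.2 to 22.3 TPM in WL+FR, against 21.3 to 24.1 TPM in WL (-0.13, adjusted p = 0.0578), and with quantile normalization it was called lower (-0.27, adjusted p = 0.00223). The levels of these 3 genes overlapped between lights, and 2 others of the list were too low to be tested.

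Among the transcription factors of phytochrome A signalling, 1 of 5 was called, near the 23.2% of all genes tested. It was *HFR1*, an atypical bHLH factor that holds back PIFs, with 185 to 213 TPM in WL+FR, against 19.0 to 26.0 TPM in WL (3.09, adjusted p = 1.93e-10). *FHY3* and *FAR1*, the activators of *FHY1* and *FHL*, were not called. *FHY3* had 32.2 to 38.1 TPM in WL+FR, against 30.5 to 34.1 TPM in WL (0.10, adjusted p = 0.0981), and *FAR1* 13.0 to 16.8 TPM, against 13.6 to 15.5 TPM (0.07, adjusted p = 0.475). *HY5*, a bZIP factor of light signalling, had a response of 0.31 (adjusted p = 0.0358).

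Of the genes for ubiquitin ligases and turnover, 2 of 8 were higher, against 18.4% of all genes tested. A list this small does not set these counts apart from that share. *SPA1*, a partner of the COP1 ligase in repressing phytochrome A signalling, had 49.0 to 57.3 TPM in WL+FR, against 36.0 to 44.1 TPM in WL (0.41, adjusted p = 9.55e-06), and *SPA4* had 17.9 to 21.4 TPM, against 13.7 to 18.5 TPM (0.32, adjusted p = 0.00197). *COP1* itself was not called (0.18, adjusted p = 0.266). Among the photobody factors 1 of 4 was higher and 1 lower, against 23.2% of all genes called in either direction. *TZP*, a zinc finger protein that associates with phytochrome B, had a response of 0.43 (adjusted p = 0.00023), and *RCB*, which acts in phytochrome signalling and chloroplast biogenesis, one of -0.48 (adjusted p = 0.00128).

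Of the 9 kinases, phosphatases and cytosolic partners, the 4 called higher were *PKS1*, *PKS2*, *PKS3* and *PKS4*, with responses of 0.25, 0.47, 0.59 and 1.20. Their adjusted p values were 0.000352, 8.91e-06, 6e-05 and 1.34e-05. Of all genes tested 18.4% were called higher. Of the 8 PIF factors, bHLH proteins that bind active phytochromes or belong to the same family, *PIF5* (0.58, adjusted p = 1.34e-06), *PIF8* (1.38, adjusted p = 8.57e-07) and *PIL1* (3.76, adjusted p = 1.11e-07) were higher, and *PIF3* was not called (0.19, adjusted p = 0.0342). With quantile normalization *SPA4* and *PKS1* were no longer called (adjusted p = 0.0324 and 0.0377), the other 10 kept their call and direction, and *LRB2* and *HMR* were called lower besides *HO2*. *PHYB*, with 1.04, ranked below *HFR1*, *PIL1*, *PIF8* and *PKS4* among the members and pathway genes called.

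**Figure D4:**
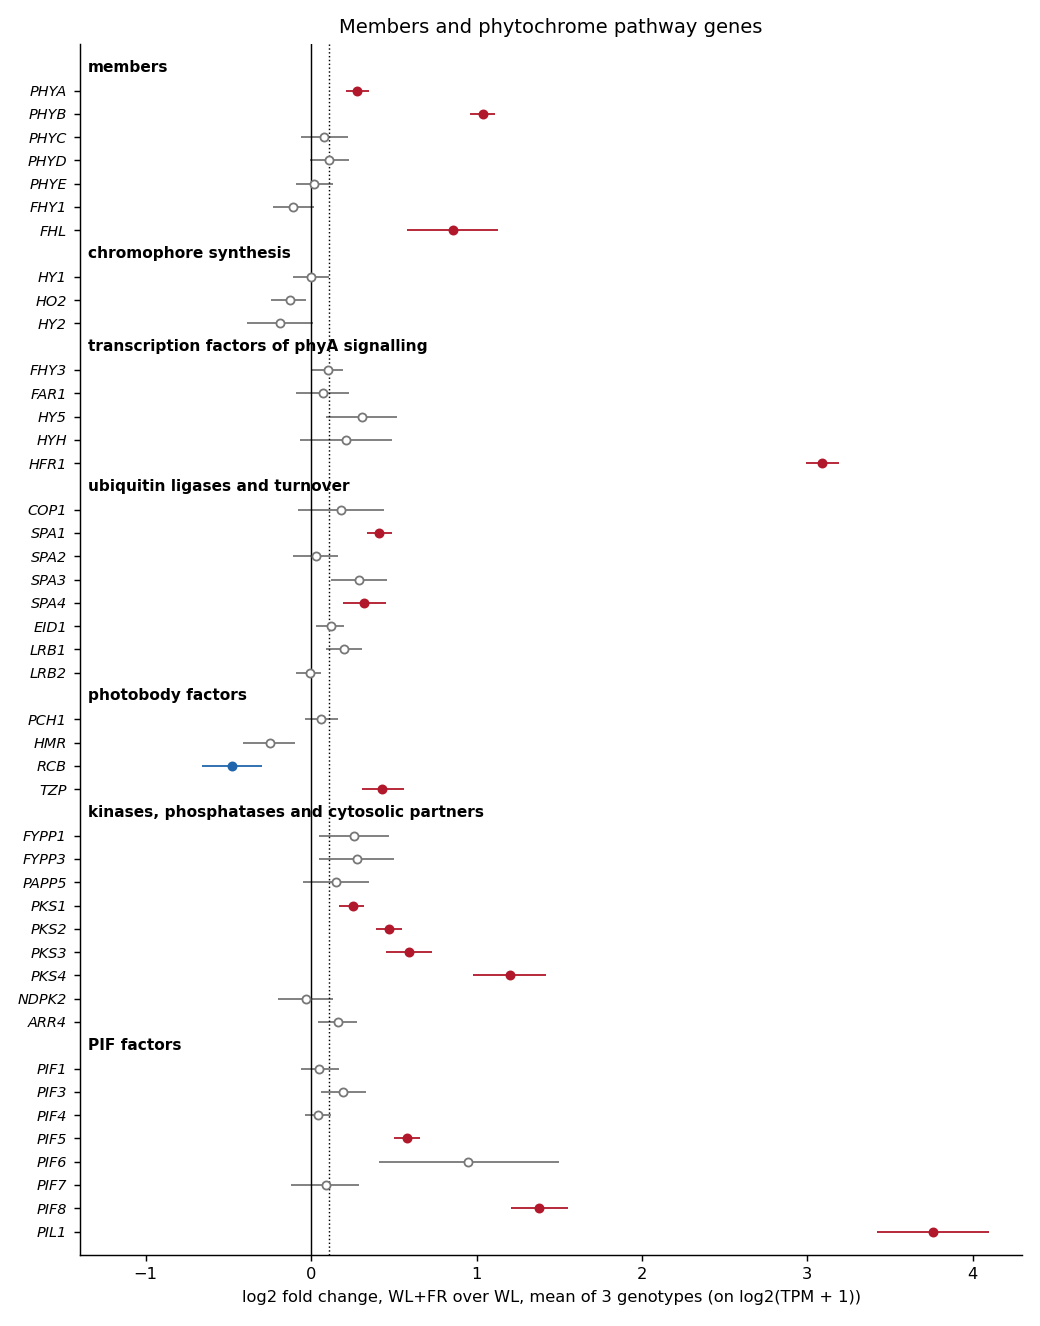
Log2 fold change of WL+FR over WL, mean of 3 genotypes (horizontal axis, on log2(TPM + 1)), with 95% intervals, for the 7 members and 37 pathway genes by list; filled red points are called higher, filled blue lower, and open points not called. The dotted line is the median of all genes tested (0.11); *HFR1* and *PIL1* lie beyond 3, *PHYB*, *PKS4* and *PIF8* beyond 1, and the chromophore genes at or below 0.

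Genes that mark tissues also differed between lights. Of 29 markers, 27 were tested, 12 were called higher in WL+FR and 5 lower. Among all genes tested, 23.2% were called in either direction and 18.4% were called higher. The 8 green tissue markers summed to 74517 to 82154 TPM in WL+FR, against 95165 to 102396 TPM in WL, with 3 called higher and 4 lower. The lower sum was that of *LHCB1.3*, a chlorophyll-binding protein gene, which had 46682 to 54165 TPM in WL+FR, against 67538 to 76336 TPM in WL, while the other 7 summed to 27329 to 28252 TPM in WL+FR, against 26008 to 28835 TPM in WL. The 8 root markers summed to 131 to 157 TPM in WL+FR, against 87.4 to 109.9 TPM in WL. *CASP1*, *RHD6* and *SHR* were called higher and the other 5 were not called. *CASP1* alone had 79.5 to 104 TPM in WL+FR, against 42.5 to 63.6 TPM in WL. The 4 xylem markers, all called higher, summed to 143 to 164 TPM, against 79.0 to 122 TPM, and the 3 phloem markers to 182 to 217 TPM, against 139 to 166 TPM. The 3 epidermis markers summed to 274 to 353 TPM in WL+FR, against 299 to 473 TPM in WL, with *PDF1* called lower (-0.37) and *ATML1* (0.07) and *PDF2* (0.12) not called. The 3 shoot meristem markers summed to 1.7 to 4.5 TPM in WL+FR, against 0.9 to 2.8 TPM in WL, with *WUS* at 0 in 5 of 6 WL+FR libraries and in 6 of 6 WL libraries. The part of tissue composition in the levels of *PHYB*, *FHL* and *PHYA* was not tested.

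The genes whose pattern over the 12 libraries was most like that of each member were listed by Pearson correlation of log2(TPM + 1) among 13744 genes, as a description. For *PHYB* they were *CYP705A19* (r = 0.997), *CIPK6* (r = 0.996) and *SOT14* (r = 0.995). For *FHL* they were *RPL21A* (r = 0.967), *PER9* (r = 0.964) and *PHOS34* (r = 0.962), and for *PHYA* *JAL22* (r = 0.976), *CYP708A3* (r = 0.971) and *ABCG19* (r = 0.970). The leading genes were *CAT3* for *PHYD* (r = 0.952), *AT4G32820* for *PHYE* (r = 0.915), *FXG1* for *PHYC* (r = 0.903) and *RABA1C* for *FHY1* (r = 0.902). All 12 points share their libraries and scaling between the genes compared. In *PHYB*, *FHL* and *PHYA* the lights did not overlap, so r cannot tell a shared difference between lights from a closer likeness.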

How the data were processed

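RNA from 12 libraries of seedlings was analysed, 2 for each genotype and light, grouped by the labels. Per the study's methods the authors aligned read pairs to TAIR10 with HISAT2, while the submitters' processing notes name FastQC, Bowtie2 and Cufflinks, with the versions of the last 2 not given in the sources used here. The authors deposited FPKM values per gene with lower and upper bounds, in the layout of Cufflinks. FPKM were divided by their sum per library and multiplied by 1e6 to give TPM, and 2 identifiers with repeated rows were summed. The model in limma 3.58.1 under R 4.3.3 had log2(TPM + 1) as response, 1 mean for each of 6 groups and eBayes with trend, and held the 20020 genes whose average reached 0.5 TPM. P values were Benjamini-Hochberg adjusted over these genes, and genes were called at an adjusted p under 0.01 (second rule: absolute log2 fold change over 1 as well). All tests were two-sided. Fragments were approximated from the FPKM bounds, taken as 2 standard errors of counting on each side. Replicate numbers run from 1 to 12 and were not shared between groups.

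The fit was tested on simulated data. Alternatives changed the pseudocount, filter, scaling, test, threshold and libraries, one at a time. The members and lists were chosen with earlier results of these data known. Genes named are the members, pathway genes called in the mean response with *FHY3*, *FAR1*, *HY5*, *COP1*, *SPA1*, *HY1*, *HY2* and *PIF3*, up to 3 genes of most similar pattern for each member, and *ATHB2*, *PIL1*, *REV* and *WOX4* as checks. *HO2*, *LRB2*, *HMR* and the markers singled out were named after their values were seen. Sequences came from RefSeq TAIR10.1, in which 32520 of 32539 shared genes had the same start and end as in the tables (Biopython 1.88). Python 3.11.15 with pandas 2.3.3 and matplotlib 3.10.9 was used otherwise.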

Additional observations from a re-analysis of the deposited data

How the results depend on the processing

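With an absolute log2 fold change over 1 required, at an adjusted p under 0.01 or under 0.001, 1 member was called in the mean response in place of 3, 0 in *rev-5* in place of 2, and 1 in the libraries labelled *wox4* in place of 2. At 0.01 this rule held for 300 of all genes in the mean response, in place of 4638. FPKM in place of TPM, quantile normalization and limma without trend each gave 1 member in *rev-5* and 1 in the libraries labelled *wox4*, and a fit of only the groups compared gave 0 and 1. Calls over all genes fell as well. In *rev-5* 1321 genes were called in the main fit, 1198 with FPKM, 1098 with quantile normalization and 699 without trend. With only the groups compared 63 were called. The same counts in the libraries labelled *wox4* were 1897, 1650, 1456, 1201 and 182. In Col-0, where 1 member was called, an adjusted p under 0.05 gave 3 and voom on approximated fragments gave 2. Voom called 2053 of all genes there, against 1939 in the main fit. With each library left out in turn, the count was 1 to 2 in *rev-5*, 1 to 3 in the libraries labelled *wox4*, 1 to 2 in Col-0 and 3 in every mean response. The call that moved was that of *PHYA* or *FHL*, and that of *PHYB* moved in *rev-5* alone, where its log2 fold change of 0.96 missed the fold minimum and the fit of only the groups compared gave an adjusted p of 0.0128. The cause of these moves was not tested. The comparisons with Col-0 and the differences of responses had 0 members called under every alternative run. Over 84 results of members and 1596 values under alternatives, no called value changed sign, and 59 changes of sign were between values that were not called, at an absolute log2 fold change of at most 0.29. The response without the libraries labelled *wox4* and the averages over both lights were added after seeing the data; the first called 2437 of all genes in place of 4638. No paired analysis was possible because the groups compared share no replicate numbers.

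The 2 libraries per group and the 1 allele per mutant limit what the tests can show, and the low level of *FHL* limits that gene most. Transcript levels say nothing of the amount, form or location of the proteins.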

Other observations

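Upstream windows with the motifs seen before *PHYB* and *FHL* were compared with all windows, a description chosen after the members' matches were seen. Of 253 tested genes with CACGCGC in the 250 bases before the start, 17.8% were called higher in WL+FR and 3.95% lower, against 18.8% and 4.85% of 19238 tested genes with any window. Of 1426 tested genes with CACGTG, 18.8% were higher and 5.82% lower. Of 207 tested genes with 2 or more CACGTG, 15.9% (33 genes) were higher. Of 54 with CACGCGC and at least 1 CACGTG, 11.1% were higher, which is 6 genes with *PHYB* and *FHL* among them. Differences between these shares were not tested. Of the 6 tested genes whose window held CACGCGC and 2 or more CACGTG, 2 were called higher, and these were *PHYB* and *FHL*, the genes from which the combination was taken.

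*EID1*, an F-box gene that tempers phytochrome A signalling and was named after its values were seen, was called lower in *rev-5* than in Col-0 in WL. It had 37.5 and 34.8 TPM in *rev-5* WL, against 48.8 and 49.4 TPM in Col-0 WL, a log2 difference of -0.43 (adjusted p = 0.00492 in limma). It was the 1 gene called of 37 tested pathway genes, a share near the 1.93% of all genes called. In WL+FR it had 39.7 and 44.1 TPM in *rev-5*, against 49.5 and 49.0 TPM in Col-0, and was not called (-0.23, adjusted p = 0.0904). In WL it was not called in limma without trend, in a fit of only the groups compared, or without any of 8 of the 12 libraries.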
